A study of Mus musculus with 4 samples.

Results

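DNA methylation was compared between KO and WT mouse leukaemic cells that had both been given decitabine. The comparison rests on 2 of the 4 arrays of the series, 1 array a side. Decitabine was given at 20 nM every 24 h for 3 days and the cells were taken at 72 h. The 2 groups share this treatment and a culture medium with interleukin-6, interleukin-3 and stem cell factor. The other 2 arrays hold WT and KO cells that received no decitabine. Source names call the cells Mll5WTHM and Mll5KOHM, the genotype field calls the KO cells HOXA9 KO, and the cell line field reads MII5 for every sample, so the labels disagree on which gene the KO cells lack. No probe of the array is named for Mll5, and the deletion was not checked here. No 2 arrays shared a slide, so slide and genotype cannot be told apart, and nothing says whether the cells came from separate cultures. With 1 array a side no difference has a replicate check, and none was tested. An error after ± is the SD over the probes of a gene or region.

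Decitabine is a cytidine analogue that enters DNA during replication and traps DNA methyltransferases, so that methylation is lost as cells divide. Mll5 (Kmt2e) is a SET and PHD domain protein of the mixed lineage leukaemia family that takes part in blood stem cell function, and Hoxa9 is a homeobox factor that drives myeloid leukaemia. In methylated DNA immunoprecipitation (MeDIP), an antibody to 5-methylcytosine pulls down methylated fragments. The pulled-down DNA was hybridised in Cy3 and the total (input) DNA of the cells in Cy5, without a dye swap, after whole genome amplification of both. A higher ratio of MeDIP over input is read as more methylation. The input channel holds genomic DNA before the pull-down, so a difference between arrays in that channel is not a methylation measurement.

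Of 520554 probes, 344191 (66.1%) had an input signal well above background on both decitabine arrays and were kept. Log2 ratios (MeDIP over input) were centred on each array's median and averaged over the probes of a gene, which left 18381 gene names with at least 3 probes (median 18). The MeDIP channel was dim. It stood well above background at 9.34% of spots on the WT array and 10.7% on the KO array, and at 38840 kept probes (11.3%) on both. Such probes are called bright below. A gene without a bright probe has only a bound in the MeDIP channel, and no fold is given for it.

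The probes below are shown because the results turn on their genes. Sequences are read 5′ to 3′ on the plus strand of mm9, and capitals mark each CG. Galntl1, which encodes a GalNAc transferase-like enzyme of mucin-type O-glycosylation, had the largest mean difference of any gene with a symbol, though 1 of its 6 probes was bright on both arrays. A further probe of this gene, in the UTR, is not printed.
Galntl1 probe 1, chr12:81619771-81619815: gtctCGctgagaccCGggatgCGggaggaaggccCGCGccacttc
Galntl1 probe 3, chr12:81620290-81620334: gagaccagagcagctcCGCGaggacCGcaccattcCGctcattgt
Galntl1 probe 4, chr12:81620372-81620416: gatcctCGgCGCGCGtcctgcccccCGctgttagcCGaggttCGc
Galntl1 probe 5, chr12:81620528-81620572: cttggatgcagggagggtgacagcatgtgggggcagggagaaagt
Galntl1 probe 6, chr12:81620747-81620791: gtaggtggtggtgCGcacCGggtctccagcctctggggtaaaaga
Among regions of bright probes at a gene with a symbol, that with the largest difference lay at the start of Bcorl1, a transcriptional corepressor gene on chromosome X.
Bcorl1 probe 1, chrX:45694166-45694210: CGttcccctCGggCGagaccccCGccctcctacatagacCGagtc
Bcorl1 probe 2, chrX:45694356-45694400: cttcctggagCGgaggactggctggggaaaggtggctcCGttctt
Bcorl1 probe 3, chrX:45694726-45694770: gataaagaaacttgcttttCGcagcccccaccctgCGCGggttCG
Prb1, a salivary proline-rich protein gene, and Cass4, a Cas-family scaffold protein gene, were lower in KO cells.
Prb1 probe 1, chr6:132160081-132160140: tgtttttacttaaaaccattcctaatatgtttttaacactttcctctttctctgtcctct
Prb1 probe 3, chr6:132161974-132162033: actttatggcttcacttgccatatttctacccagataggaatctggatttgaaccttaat
Cass4 probe 1, chr2:172220577-172220633: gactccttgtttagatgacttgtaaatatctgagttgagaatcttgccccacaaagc
Cass4 probe 2, chr2:172221128-172221183: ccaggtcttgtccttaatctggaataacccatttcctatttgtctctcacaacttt
Cass4 probe 3, chr2:172221240-172221299: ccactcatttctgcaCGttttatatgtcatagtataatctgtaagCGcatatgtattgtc
Slc1a6 probe 3 lies in an intron and was not bright on either array. Its measured difference of 1.40 stood beside a MeDIP difference of 1.43 and an input difference of 0.05.
Slc1a6 probe 3, chr10:78243489-78243538: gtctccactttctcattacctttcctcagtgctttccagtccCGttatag

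The printed probes differ in CG content between the directions, but their genes were chosen for display. Slc1a6 probe 3, higher in KO cells, holds 1 CG. Among those lower and not printed, Hist1h3d held 1.67 CG per probe and the Rhox10 region 4 CG in 4 probes. Galntl1 probe 4 holds 7 CG and was bright on the KO array only, so its difference is a bound: it was at least 4.10-fold higher (measured log2 ratios -2.67 on the WT and 1.35 on the KO array), with an input difference of -1.76. Probe 5, with 0 CG, was bright on both arrays and differed by 0.80, of which the MeDIP channel gave -0.06 and the input channel -0.84. Probes 1, 3 and 6, with 5, 4 and 2 CG, had measured differences of 1.72, 2.02 and 0.53, without being bright on either array. Bcorl1 probes 1, 2 and 3, with 5, 2 and 4 CG, differed by 2.60, 0.67 and 2.22. The Prb1 probes, of which probes 2 and 4 are not printed, hold 0 CG and were not bright. Probe 3 had a measured difference of -1.87, with an input difference of 2.06 and a MeDIP difference of 0.18. Probes 1 and 2 had input differences of 1.31 and 1.08, each with a MeDIP difference of -0.03. In probe 4 the measured difference was -0.85, with an input difference of 0.04 and a MeDIP difference of -0.83. The Cass4 probes hold 0, 0 and 2 CG and differed by -0.94, -1.35 and -0.88.

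Over all 18381 genes the difference of KO minus WT had a median of -0.01 and an SD of 0.29, and 8886 genes lay above 0. The central 95% of genes ran from -0.57 to 0.60. A gene was counted as higher or lower when its mean differed by at least 2-fold and at least 80% of its probes went that way. By this rule 84 genes (0.457%) were higher in KO cells and 14 (0.0762%) lower. Of the 84, 31 have a gene symbol and 53 are named by a clone or transcript only; of the 14, 7 have a symbol. The genes counted higher had 3 to 15 probes (median 4), fewer than the median gene. The direction of the count depends on the centring and on which probes enter. The 98 counted genes were higher in 85.7% of cases. Centred on the bright probes, which lowers the median gene to -0.40, 12 genes were higher and 349 lower (3.32% higher). With loess the counts were 20 and 22 (47.6%), with probes whose MeDIP value was not a surrogate 52 and 80 (39.4%), with signals summed over probes 125 and 104 (54.6%) and at a 1.5-fold limit 347 and 296 (54.0%). Among the genes nearest the limit, Dbx2 (1.004) and D5Ertd579e (1.01) were inside, Irs2 (0.998) and Ugcgl2 (0.99) outside; on the lower side Olfr1454 (-1.01) and Mbd3l2 (-1.02) were inside, Fbxw13 (-0.99) and Ccnk (-0.99) outside.

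The ratio was split into its channels, each centred on its own median, so that the difference of the ratio is the MeDIP difference minus the input difference with a constant of -0.02. Input signal was lower in KO cells for all 84 genes counted higher, and MeDIP signal was higher for 82 of them. The median MeDIP difference of these genes was 0.47 and their median input difference -0.74. The input difference was the larger of both in 63 genes and the MeDIP difference in 21. Of the 14 genes counted lower, input was higher in 14 and MeDIP lower in 11, with medians of 0.67 and -0.41, and the input difference was the larger in 9. Over all genes the ratio difference correlated with the input difference at r = -0.72 (rho = -0.69) and with the MeDIP difference at r = 0.53 (rho = 0.50); both are parts of the ratio, and genes are not independent replicates.

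**Figure D1:**
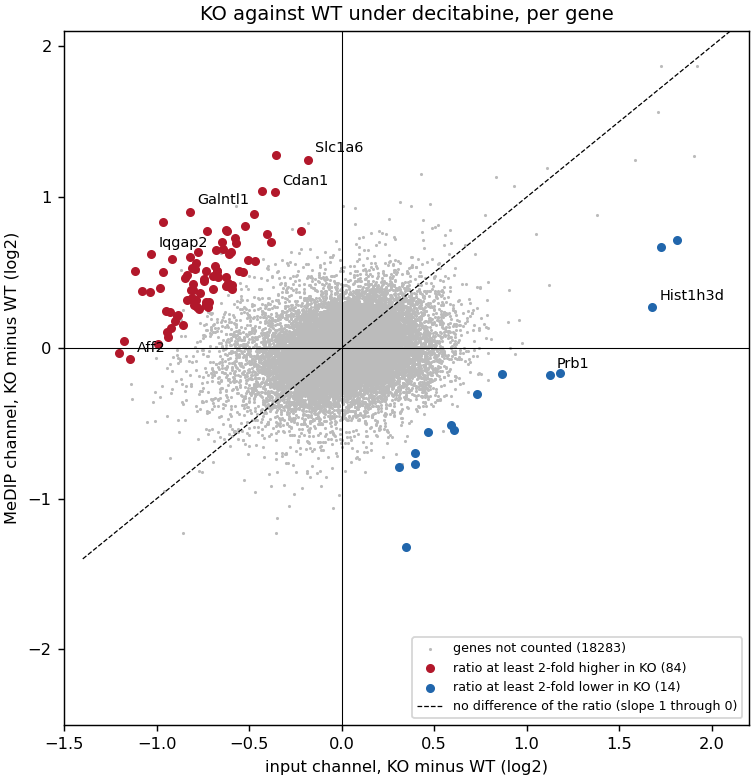
Each point is 1 of 18381 genes, placed by the difference of its input channel (x axis) and its MeDIP channel (y axis) between the KO and the WT decitabine array, both as log2 KO minus WT and as means over probes. The 84 genes counted higher (red) lie to the left of 0, with lower input in KO cells, and the 14 counted lower (blue) to the right; grey points do not meet the 2-fold and 80% rule and the dashed line marks an unchanged ratio.

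Genes with a symbol that were higher in KO cells included enzymes, scaffold and cytoskeletal proteins and a glutamate transporter. Galntl1 had a log2 ratio of -1.09 on the WT and 0.65 on the KO array, a measured difference of 1.74 ± 1.24 over 6 probes (chromosome 12, 81619771 to 81620791, 3 exonic and 3 intronic probes). Its MeDIP difference was 0.90 and its input difference -0.82, but the 1 probe bright on both arrays differed by 0.80, with -0.06 from MeDIP. Iqgap2, a scaffold that binds calmodulin, went from -1.12 to 0.55 over 4 probes (1.67 ± 0.996, 3.18-fold; chromosome 13, 96661592 to 96662129). Ttc21b, a component of intraflagellar transport in cilia, went from -1.003 to 0.49 over 3 probes (1.49 ± 0.48, 2.81-fold; chromosome 2, 66094495 to 66094795). In these 3 genes every probe was higher on the KO array. Of the probes of Iqgap2 2 of 4 were bright on both arrays, and of Ttc21b 1 of 3, so these folds rest in part on MeDIP signal not above background.

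Slc1a6, a glutamate transporter of Purkinje neurons, had most of its mean difference over probes in the MeDIP channel. Its ratio was -0.57 on the WT and 0.88 on the KO array, a difference of 1.45 ± 0.51 over 3 probes (2.73-fold; chromosome 10, 78243241 to 78243538, at the gene start). Its MeDIP signal was 1.25 higher while its input differed by -0.18, and 1 of the 3 probes was bright on both arrays. That probe differed by 1.98, with a MeDIP difference of 1.07 and an input difference of -0.89. The mean and its fold therefore rest in part on MeDIP signal not above background. Iqgap2 had a MeDIP difference of 0.62 and an input difference of -1.03. Rapgefl1, related to guanine nucleotide exchange factors, resembled Iqgap2, with a ratio of -0.80 on the WT and 0.62 on the KO array (1.42 ± 0.44, 2.68-fold over 4 probes), a MeDIP difference of 0.37 and an input difference of -1.03. Nlgn1, a synaptic adhesion molecule, went from -0.88 to 0.46 over 7 exonic probes (1.34 ± 1.49, 2.53-fold), with an input difference of -0.79. Of the probes of Rapgefl1 2 of 4 and of those of Nlgn1 1 of 7 were bright on both arrays.

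In 3 further genes 1 probe each was bright in MeDIP, on the KO array only. The bound given is that of this probe, from the lowest bright signal on the WT array, and the gene mean has none. Syne2, which links the nuclear envelope to the cytoskeleton, had measured mean ratios of -0.74 and 0.69 on the WT and KO arrays. Its bright probe, 1 of 3, was at least 2.04-fold higher. Adnp, a homeobox protein of chromatin complexes, had -1.63 and -0.20, and its bright probe, 1 of 4, was at least 1.85-fold higher. Tnfaip8l3, a TNFAIP8 family gene, had -1.52 and -0.15, and its bright probe, 1 of 3, was at least 1.64-fold higher. Cdan1, the gene of congenital dyserythropoietic anaemia type I, had -1.52 and -0.11 over 5 UTR probes, of which 80% went this way. It had no bright probe on either array, and its MeDIP signal was 1.03 higher and its input signal differed by -0.36.

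The genes with a symbol that were lower in KO cells held 2 histone genes, 2 olfactory receptor genes, a secreted protein gene, a sulfotransferase gene and a gene related to methyl-CpG binding proteins. None of these 7 had a bright probe on either array, so their MeDIP signals carry only bounds and no fold is given. Hist1h3d, a replication-dependent H3 gene, had measured ratios of 0.35 on the WT and -1.04 on the KO array over 3 probes (-1.39 ± 0.32; chromosome 13, 23667013 to 23667684), with an input difference of 1.68 and a MeDIP difference of 0.27. Prb1 had 0.36 and -0.93 over 4 probes (-1.29 ± 0.43), with an input difference of 1.13. Hist1h2bh, an H2B gene of the same cluster, had 0.91 and -0.18 (-1.09 ± 0.51), with an input difference of 0.59 and a MeDIP difference of -0.51. For Hist1h3d and Prb1 the input channel gave the larger share; for Hist1h2bh both channels moved in opposite directions by similar amounts.

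Sult1b1, a sulfotransferase, had measured ratios of 1.23 and 0.15 (-1.07 ± 0.77 over 6 probes) with a MeDIP difference of -0.70 and an input difference of 0.39; besides Olfr1454 (-0.56 and 0.47) it was the only gene of the 7 with the larger part in MeDIP. Mbd3l2, a relative of the methyl-CpG binding protein MBD3, had 1.33 and 0.31 over 7 intergenic probes (-1.02 ± 0.94). The olfactory receptor genes Olfr204 and Olfr1454 had 0.79 and -0.23 (-1.02 ± 0.76) and 0.94 and -0.07 (-1.01 ± 1.04). Histone and olfactory receptor genes belong to families of similar copies, and a probe of 1 copy may also bind others. In the genes counted lower the median GC content of probes was 36.7%, against 44.3% over all genes and 59.4% in the genes counted higher.

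**Figure D2:**
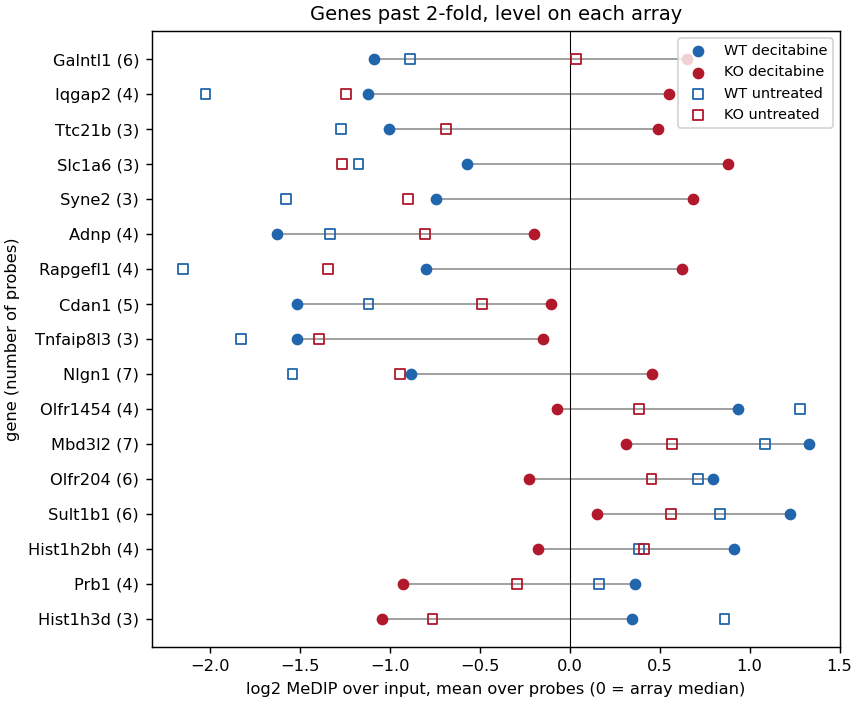
Log2 ratio of MeDIP over input, as the mean over a gene's probes with 0 at the array median (x axis), for the 10 highest and the 7 lower genes with a symbol (y axis, number of probes in brackets). Filled circles are the WT (blue) and KO (red) decitabine arrays joined by a line, open squares the untreated arrays. Hist1h3d keeps its gap without decitabine, while the untreated values of Slc1a6 and Hist1h2bh lie close together. Hist1h3d, Slc1a6 and Hist1h2bh had no bright probe on an untreated array.

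In the MeDIP channel alone, 9 genes (0.049%) were at least 2-fold higher in KO cells and 4 (0.0218%) lower. Slc1a6 (1.25) and Cdan1 (1.03) were the genes with a symbol among the 9, and none of the 4 had one. Of the 9, 5 had 0 probes bright on both arrays, Cdan1 among them, and Slc1a6 had 1 of 3; of the 4, 2 had no bright probe on either array. The counts therefore hold measured differences that are not folds above background. In 6 of the 9 the input was higher as well. In the input channel alone 13 genes (0.0707%) were higher and 14 (0.0762%) lower by the same rule. With a symbol these were Hist1h3d (1.68), Cdc123, a cell cycle and translation factor (1.59), Prb1 (1.13) and Bfar, an apoptosis regulator (1.12) on the higher side, and Aff2, a gene of the AFF family of transcription elongation factors (-1.15), Iqgap2 (-1.03) and Rapgefl1 (-1.03) on the lower side. Without decitabine the input of the same genes had the same sign in 13 of 13 and 13 of 14. At Cdc123 the MeDIP signal was higher with the input, by 1.25, and the ratio differed by -0.32 ± 0.51.

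Mitochondrial DNA stood apart in the input channel. At 29 mitochondrial probes the input signal was 3.77-fold higher on the KO than on the WT decitabine array in the median, and higher at 28 of them. Without decitabine it was 5.11-fold higher. By probe position 4 of the 13 genes higher in the input channel were mitochondrial, as were 2 of the 9 higher in the MeDIP channel. AK131579 and BC104337, neighbours on chromosome 1 and counted in both channels, had input differences of 1.91 and 1.71. Those of the 4 mitochondrial genes ran from 1.73 to 1.92. Whether these 2 share sequence with mitochondrial DNA was not tested. MeDIP signal at the 29 mitochondrial probes was 2.12-fold higher and the ratio 1.25-fold lower in KO cells. Whether the share of mitochondrial DNA bears on other probes was not tested.

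The genes that MeDIP measured best had at least 3 bright probes on both arrays. Of 6020 such genes, 124 (2.06%) were higher and 5 (0.0831%) lower in KO cells over these probes, 2.14% in all. The median difference was 0.32, with 0.03 from the MeDIP and -0.29 from the input channel, and 5140 genes lay above 0. Centred on the bright probes the counts were 13 and 21, and with loess 4 and 45. Among genes with a symbol the differences were largest at 5. Nog, the BMP antagonist noggin, differed by 1.91 ± 1.85 over 3 bright probes, Unc5d, a netrin receptor, by 1.78 ± 1.25, Bnip3l, a mitophagy receptor, by 1.58 ± 0.64, Baz2a, a subunit of the nucleolar remodelling complex, by 1.53 ± 1.17 and Ppp2ca, the catalytic subunit of protein phosphatase 2A, by 1.53 ± 0.76. Input gave the larger part in each of them except Bnip3l, with differences of -1.27, -1.04, -0.75, -0.93 and -0.98 against MeDIP differences of 0.63, 0.71, 0.81, 0.57 and 0.53. Over all their kept probes the same genes differed by 0.26, 0.19, -0.08, 0.09 and -0.08, so a few probes of each carried the difference.

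Of the 5 genes that were lower over bright probes, 3 had the larger part in the MeDIP channel. Over the 5 the median MeDIP difference was -1.04 and the median input difference 0.10. The X-linked homeobox gene Rhox10, of a cluster expressed in reproductive tissue, differed by -1.09 ± 0.91 over 4 bright probes, with -1.06 from MeDIP and 0.05 from input. Uchl5ip (Haus7) differed by -1.12 ± 1.19, with -1.04 from MeDIP and 0.10 from input. Mrps2, a protein of the mitochondrial ribosome, differed by -1.05 ± 0.29 over 3 bright probes, with -1.32 from MeDIP and -0.25 from input. By contrast, over the 124 higher genes the median MeDIP difference was 0.38 and the median input difference -0.80.

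Bright probes at most 1000 bp apart formed 2981 regions of at least 3 probes, with a median of 3 probes and 1013 bp. In KO cells 132 regions (4.43%) were at least 2-fold higher with all probes one way, and 4 (0.134%) lower, 4.56% in all. Among the highest at a gene with a symbol were 4 at gene starts. The Bcorl1 region (chromosome X, 45694166 to 45694770, -347 to 213 from the gene start) had a ratio of -0.90 on the WT and 0.93 on the KO array (1.83 ± 1.02). The region of Sp1, a transcription factor that binds GC boxes, went from -0.95 to 0.87 (1.82 ± 1.01; chromosome 15, 102236821 to 102237288). Unc5d went from -0.41 to 1.37 (1.78 ± 1.25; chromosome 8, 30329173 to 30329933). Tbc1d1, a Rab GTPase-activating protein gene, went from -0.46 to 1.29 (1.75 ± 0.72). Input was lower and MeDIP higher in each of the 4, with input differences of -1.09, -0.90, -1.04 and -0.97 and MeDIP differences of 0.72, 0.90, 0.71 and 0.76. Their probes had a GC content of 63.0%, 71.1%, 57.1% and 72.6%.

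The regions with the lowest differences had a GC content between 38.2% and 44.3%. The Rhox10 region (chromosome X, 35418601 to 35420168) went from 1.87 on the WT to 0.78 on the KO array, with -1.06 from MeDIP and 0.05 from input. The Cass4 region, in an intron (chromosome 2, 172220577 to 172221299), went from 2.60 to 1.55 (-1.06 ± 0.26), with -0.66 from MeDIP and 0.41 from input. The Mrps2 region, in coding sequence and UTR (chromosome 2, 28325063 to 28325556), went from 1.47 to 0.42. The next by size, at Kcnn3, a calcium-activated potassium channel gene (-0.96 ± 0.64), and Acr, the sperm protease acrosin (-0.84 ± 0.77), did not reach 2-fold. Without decitabine the regions at Rhox10, Cass4 and Mrps2 had measured differences of 0.33, 0.12 and 0.43, but 1, 0 and 0 of their probes were bright on both untreated arrays, so these rest mostly on MeDIP signal not above background.

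The difference between KO and WT cells rose with the GC content of the probe. In probes under 35% GC (21549 probes) the median ratio was 0.57 on the WT and 0.17 on the KO array, a median difference of -0.37. In probes of 65% GC and over (13064 probes) it was -0.86 on the WT and 0.06 on the KO array, a median difference of 0.82. The input channel ran the other way, from 0.36 to -0.70, while the MeDIP channel stayed between -0.11 and 0.03 in every class. The trend was also present without decitabine. There the median difference went from -0.33 under 35% GC to 0.47 at 65% and over, and the input from 0.28 to -0.30. Over probes bright on both arrays the MeDIP medians of the classes lay between -0.10 and 0.17, the highest at 65% GC and over. By number of CG in the probe, the median difference rose from -0.09 at 0 CG to 1.002 at 8 or more. MeDIP rose with it from 4 CG on, from -0.07 at 4 to 0.22 at 8 or more (320 probes), and input fell from -0.55 to -0.80. Over probes bright on both arrays the MeDIP difference rose from -0.01 at 0 CG to 0.03 at 2, 0.14 at 4 and 0.41 at 6 (266 probes), and was 0.24 at 8 or more (46 probes), while input fell from -0.25 at 0 CG to -0.75 at 6. Around gene starts, where CG-rich promoters lie, probes from the start to 500 bp downstream had a median difference of 0.22 and a median GC content of 51.1%, against -0.10 and 41.1% from 1000 to 500 bp upstream. The MeDIP medians at these places were -0.09 and -0.08.

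**Figure D3:**
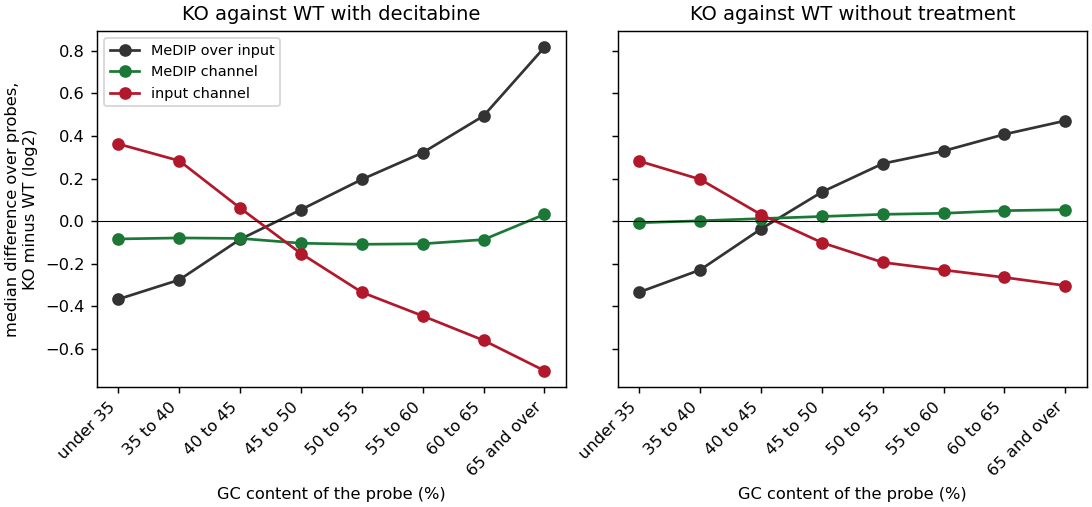
Median difference over probes, as log2 KO minus WT (y axis), by GC content of the probe in 8 classes (x axis), for the ratio (black), the MeDIP channel (green) and the input channel (red), with decitabine on the left and without treatment on the right. In the decitabine pair the ratio climbs from -0.37 to 0.82 as the input falls from 0.36 to -0.70, and the MeDIP line stays near 0. In the untreated pair the ratio climbs from -0.33 to 0.47 as the input falls from 0.28 to -0.30.

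When each probe was compared with probes of like GC content (in steps of 2.5 percentage points, a setting chosen after the data were seen), 14 genes were higher and 7 lower, and 14 of the 84 and 3 of the 14 genes above were among them. Galntl1 (1.15), Syne2 (1.13), Slc1a6 (1.10), Iqgap2 (1.03), Cdan1 (1.01) and Hist1h3d were the ones with a symbol. Rapgefl1 came to 0.69 and Ttc21b to 0.92. Across genes the GC content correlated with the ratio difference at r = 0.59 (rho = 0.54), with the input difference at r = -0.76 (rho = -0.75) and with the MeDIP difference at r = -0.09 (rho = -0.13), over 18332 genes that are not independent replicates. Which property of the DNA or the arrays moves with GC content was not tested.

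Probes bright on the KO array only numbered 14371 and those bright on the WT array only 7963. The lowest bright MeDIP signal was 10.02 (log2 intensity) on the WT and 9.73 on the KO array, so these counts, and those per gene below, compare unlike limits. With a common limit of 10.02 on both arrays, chosen after the data were seen, the counts were 12192 and 9212. Probes bright on the KO array only had a median ratio of 0.32 on the WT and 1.14 on the KO array, with a median MeDIP difference of 0.71 and an input difference of 0.01. Probes bright on the WT array only had -0.78 and -0.35, and those bright on both 0.02 and -0.33. The choice of probes by MeDIP signal sets the MeDIP differences of the first 2 classes. Counted per gene, Gsto1, a glutathione transferase, had 3 bright probes on the WT and 12 on the KO array of 44, Slc38a1, a glutamine transporter, 6 and 14 of 19, Mfi2, melanotransferrin, 6 and 13 of 31, Pank1, a pantothenate kinase, 9 and 16 of 55, and Arntl2, a clock factor, 8 and 15 of 32. In the other direction Gnas, the imprinted G protein locus, had 18 and 12 of 78, Zscan20 10 and 4 of 38, Mapkapk5, a stress-activated kinase, 9 and 3 of 26, Zfp646, a zinc finger gene, 6 and 0 of 25, and Eif2b4, a translation initiation factor subunit, 7 and 2 of 16. Their mean ratios differed by less than 2-fold: from 0.18 (Arntl2) to 0.29 (Gsto1) in the first group and from -0.62 (Zfp646) to 0.08 (Gnas) in the second. At Slc38a1 the MeDIP signal was 0.53 higher and the input 0.30 higher, at Eif2b4 the MeDIP difference was -0.63.

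The same genotype difference was set beside that of untreated cells, which shares no array with it. In the untreated pair 36 genes (0.196%) of 18332 were higher in KO cells and 30 (0.164%) lower. Of the 84 genes higher under decitabine 79 were above 0 without it, with a median of 0.56, and 4 met the rule; of the 14 lower genes 11 were below 0, with a median of -0.49, and 5 met the rule. Over all 18332 genes 9278 were above 0 in the untreated pair. Galntl1 differed by 0.92 without decitabine, Iqgap2 by 0.78, Rapgefl1 by 0.81 and Ttc21b by 0.59. Hist1h3d differed by -1.62, more than with decitabine. Slc1a6 (-0.09) and Hist1h2bh (0.02) were near 0 in untreated cells. Neither of them, nor Hist1h3d, had a bright probe on an untreated array.

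Across 18332 genes the ratio differences of both pairs correlated at r = 0.50 (rho = 0.48), the input differences at r = 0.71 (rho = 0.70) and the MeDIP differences at r = 0.03 (rho = 0.01). On the untreated arrays 2.73% (WT) and 2.69% (KO) of MeDIP spots stood well above background, and 61.3% and 59.9% of kept probes held a surrogate MeDIP value, so most of this MeDIP comparison is with background signal. Over the 424 genes with probes bright on all 4 arrays the values were 0.44, 0.51 and 0.25 for ratio, input and MeDIP (rho = 0.44, 0.41 and 0.12). The genes share GC content between the pairs: it correlated with the input difference of the untreated pair at r = -0.54.

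**Figure D4:**
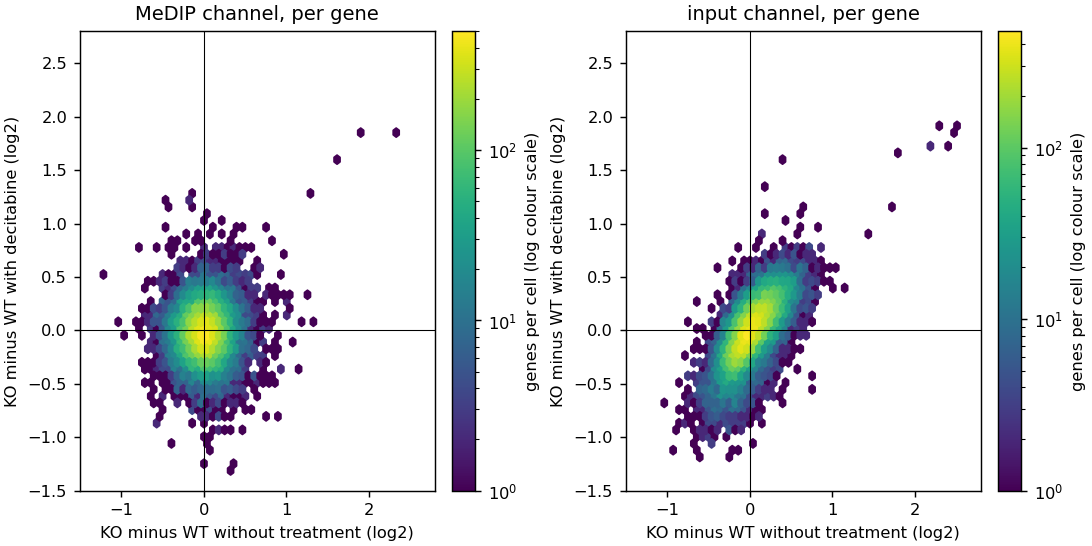
Difference of KO minus WT per gene (log2) without treatment (x axis) and with decitabine (y axis) for the MeDIP channel (left) and the input channel (right), with the number of genes per cell on a log colour scale. The MeDIP cloud is round (r = 0.03 over 18332 genes), where most untreated MeDIP signal is at background, and the input cloud lies along the diagonal (r = 0.71).

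Among genes of the methylation machinery and the leukaemia programme no difference reached 2-fold. Hoxa9 had a mean ratio of -0.49 on the WT and -0.24 on the KO array (0.25 ± 0.90 over 28 probes), and its 3 bright probes differed by 0.74 ± 0.31, with -0.04 from MeDIP and -0.77 from input. Its cofactor Meis1 had -0.08 and -0.08 (0.00 ± 0.72 over 37 probes). Dnmt1, the maintenance methyltransferase and a target of decitabine, had -0.01 and -0.07 (-0.06 ± 1.01). The de novo enzyme Dnmt3a had 0.04 and 0.36 (0.33 ± 0.76), and its cofactor Dnmt3l 0.08 and 0.59 (0.51 ± 0.73 over 27 probes). The MeDIP differences of Dnmt3a and Dnmt3l were 0.06 and 0.19, and their input differences -0.25 and -0.30. Dnmt3b differed by 0.18 ± 0.63 with no probe bright on both arrays, so it has no fold. Tet2, a 5-methylcytosine oxidase, had -0.39 and -0.53 (-0.14 ± 1.03). Zbtb4, which binds methylated DNA, had 0.46 and 0.996 (0.54 ± 0.71 over 10 probes), with 0.05 from MeDIP and -0.47 from input. Its 6 bright probes differed by 0.22 ± 0.28, with -0.05 from MeDIP and -0.25 from input. In untreated KO cells Zbtb4 was higher by 1.06, but only 1 of its probes was bright on each untreated array. With centring on bright probes Hoxa9 and Dnmt3a fell below 0, at their lowest -0.14 and -0.07, while Dnmt3l and Zbtb4 stayed above 0. Hoxa9 also fell below 0 with the median over probes, and Meis1, Dnmt1, Dnmt3b and Tet2 changed sign under some settings.

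Genes were also read by 16 lists, and in each of them 0 members were counted higher and 0 lower, against 84 (0.457%) and 14 (0.0762%) of all 18381 genes. At shares this low, a count of 0 in lists of 14 to 39 measured genes is no result about the lists. Over bright probes, in genes with at least 3 of them, list medians ran from 0.18 (apoptosis) to 0.65 (erythroid and megakaryocyte, 4 genes), against 0.32 over all 6020 such genes. By this measure 124 (2.06%) of the 6020 genes were counted higher and 5 (0.0831%) lower. In the lists 2 of 28 polycomb and 2 of 18 tumour suppressor genes were counted higher. So were 1 of 14 imprinted, 1 of 12 stem and progenitor, 1 of 12 housekeeping and 1 of 4 erythroid genes, and 0 members of any list were lower. Cdkn1c, a cell cycle inhibitor in both the imprinted and the tumour suppressor list, was one of them (1.10 ± 0.21 over 3 bright probes). Polycomb targets, developmental regulators that carry H3K27 methylation in stem cells, had the highest median, 0.17, and 35 of 39 lay above 0, against 8886 of 18381 genes. Olig1, an oligodendrocyte factor (0.51 ± 0.74), Pax2, a kidney factor (0.49) and Cdx2, a caudal homeobox factor (0.46) were at the top and Pax3 (-0.11 ± 0.71) at the bottom. Their median input difference was -0.19, their MeDIP difference -0.04 and their median GC content 48.5%. Matched on GC content the median was 0.10 with 29 above 0. With loess it was 0.06 and centred on bright probes -0.22, above the medians of all genes under these settings (-0.10 and -0.40). Without decitabine the median of the polycomb targets was 0.18, against 0.00 over all genes. Stem and progenitor genes had a median of 0.15 with 20 of 29 above 0, with the transcription factors Myb (0.38 ± 0.73) and Mecom (0.37) highest. With loess their median was -0.03, and without decitabine it was 0.13.

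The other lists lay closer to the median of all genes. The lowest and highest genes given for a list are those among its members with a probe bright on both arrays, except where said. Genes of the apoptosis list had a median of 0.08 (16 of 27 above 0), with the BH3-only gene Hrk at 0.54 ± 0.87 and the initiator caspase Casp9 at -0.69 ± 0.90. H3K4 methylation genes had 0.08 (9 of 14), with the demethylase Kdm1a, listed on the array as Aof2, at 0.37 ± 1.12 and Ash1l, a histone methyltransferase, at -0.64 without a bright probe. DNA methylation genes had 0.08 (9 of 16). Imprinted genes had 0.08 (16 of 26), with Cdkn1c at 0.47 ± 0.75 and Snrpn at -0.19 ± 0.91. Tumour suppressors had 0.07 (21 of 37), from Wif1 (-0.49 ± 1.09), a Wnt inhibitor, to Fhit (0.69 ± 0.76). Myeloid differentiation genes had 0.06 (20 of 31), from the lysozyme gene Lyz2 (-0.48 ± 0.52) to the transcription factor Cebpd (0.56 ± 0.77), and HOXA genes with their cofactors 0.06 (12 of 18), from Hoxa2 (-0.22 ± 0.53) to Hoxa7 (0.38 ± 0.68).

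Germline genes, which methylation silences in somatic cells, had a median of 0.01 (14 of 28 above 0), from Slc25a31 (-0.52 ± 0.97), a testis ADP/ATP carrier, to the meiosis gene Hormad1 (0.25 ± 0.43). Interferon response genes had 0.01 (16 of 32), from Rsad2 (-0.41 ± 0.98) to Irf9 (0.33 ± 1.005). Housekeeping genes with CpG islands had -0.06 (11 of 29), from Cox4i1, a respiratory chain subunit (-0.64 ± 0.71), to Vps29 (0.33 ± 0.88). Genes of non-blood tissue had -0.06 (10 of 21), and genes that handle decitabine -0.06 (9 of 22), with Nt5c, a nucleotidase, at -0.51 ± 0.78 and the drug efflux pump Abcg2 at 0.34 ± 1.21. Lymphoid genes had -0.08 (13 of 27), from Cd8a (-0.43 ± 1.10) to Vpreb1, a surrogate light chain gene (0.84 ± 0.83), and erythroid and megakaryocyte genes -0.10 (5 of 15), from the transferrin receptor gene Tfrc (-0.19 ± 0.69) to Klf1 (0.32 ± 1.04). Centred on bright probes the median of every list lay below 0, and with loess 2 of the 16 were above 0.

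**Figure D5:**
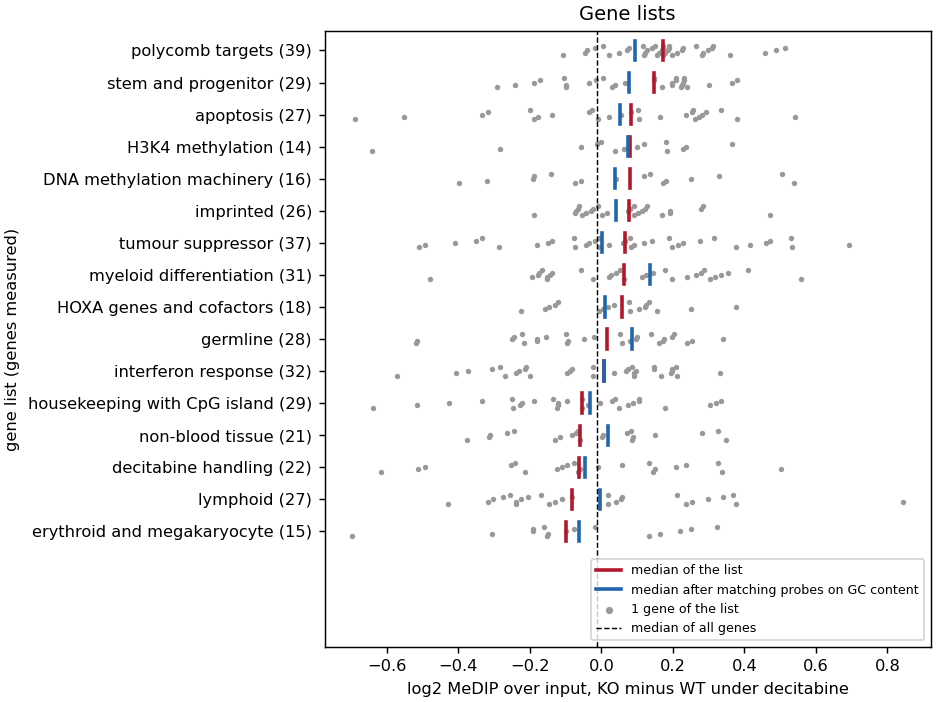
Difference of KO minus WT under decitabine (log2, x axis) for the genes of 16 lists (y axis, genes measured in brackets). Grey points are genes, the red bar is the list's median, the blue bar the median after matching on GC content and the dashed line the median of all genes (-0.01); list medians run from -0.10 (erythroid and megakaryocyte) to 0.17 (polycomb targets).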

How the data were processed

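Genomic DNA of 4 samples, MeDIP and input, was hybridised on 2-colour Agilent mouse promoter and CpG island arrays. The intensity values are the dye-normalized, background-subtracted processed signals that the authors deposited from Agilent Feature Extraction (version 10.5.1.1 per the file headers and 10.5 per the submitters' processing notes), with probe positions on mm9. The authors deposited, per the file headers, a log10 ratio per spot of Cy5 over Cy3; it was turned in sign to MeDIP over input and used as an alternative only. Where the MeDIP channel is near background the software reports a surrogate value; this held for 39.9% of kept probes on the WT and 38.5% on the KO decitabine array. The deposited series value table was not used, since its identifiers match no probe column.

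Control spots, spots flagged as non-uniform and probes whose input was not well above background on both arrays were left out, spots of a probe were averaged, and log2(MeDIP/input) was centred on each array's median, with no loess, because many probes of a MeDIP array may shift one way. Between spots of the same probe the SD of the difference was 0.55 (27041 probes), and 0.23 for bright probes (3379 probes); the median SD over a gene's probes was 0.76. Precision is limited by the number of arrays. Counts used a 2-fold limit and 80% of probes one way. Genes named are the 10 largest differences each way with a symbol, the 5 largest each way over bright probes, in the input channel, in the number of bright probes and in regions, fixed genes, and the highest and lowest bright member of each list. Pax2, Cdx2, Mecom and Ash1l were named after their values were seen, as were genes next to the 2-fold limit. A few values that this rule names are not reported here. The genes, lists and comparison were chosen with earlier results of these data known. Of 451 list symbols 409 were on the array, 9 by a synonym. The calculations were tested on simulated data. Alternatives were other centrings, loess and normexp (limma 3.58.1, R 4.3.3), quantile normalization, filters, summaries, limits and GC matching, which was added after seeing the data. Python 3.11.15, pandas 2.3.3 and bedtools 2.31.1 were used; annotation was GENCODE on mm9. The replicate, slide and dye effects were not tested.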

Additional observations from a re-analysis of the deposited data

Results flagged for a closer look

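Some genes and regions had measured differences of opposite sign with and without decitabine. With 1 array a group, this difference was not tested. Aplp1, an amyloid precursor-like protein gene, was 1.20 higher in KO cells with decitabine and had a difference of -0.13 without it. With decitabine its MeDIP difference was 0.51 and its input difference -0.67. Only 1 of its probes was bright on each untreated array. Slc1a6 had differences of 1.45 with and -0.09 without decitabine, and Hist1h2bh -1.09 and 0.02. Neither of these 2 genes had a bright probe on an untreated array, and Hist1h2bh had none on a decitabine array. Their untreated values rest on MeDIP signal not above background. The region at Rhox10 had -1.09 and 0.33, that at Cass4 -1.06 and 0.12, and that at Mrps2 -1.05 and 0.43. Of the probes in these regions 1, 0 and 0 were bright on both untreated arrays, so these untreated values rest mostly on MeDIP signal not above background.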

How the results depend on the processing

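None of the 17 genes named as counted higher or lower turned its sign under a setting that measured it. They were chosen for a difference of at least 2-fold, so an unchanged sign shows little. Of the 98 genes counted, 93 stayed counted the same way centred on housekeeping genes and 92 with quantile normalization. Centred on bright probes 26 did, with loess 25, with normexp 16, without surrogate MeDIP values 25 and matched on GC content 17. Counts are given as higher and lower. For genes (84 and 14) they were 12 and 349 centred on bright probes, 20 and 22 with loess, 16 and 2 with normexp, 52 and 80 without surrogate MeDIP values, 27 and 5 with at least 5 probes, 347 and 296 at 1.5-fold and 14 and 7 matched on GC content; the lower count was 9 centred on housekeeping genes, 8 from the deposited log ratio, 22 with no filter and 104 with summed signals. For the MeDIP channel (9 and 4) they were 3 and 0 with normexp, 2 and 0 with at least 5 probes and 50 and 92 at 1.5-fold, and 2 were lower with channel quantile normalization and 2 matched on GC content. For the input channel (13 and 14) they were 6 and 5, 3 and 1, and 134 and 327 in the same order, and 6 and 0 were lower. Over bright probes (124 and 5) they were 13 and 21 centred on bright probes, 4 and 45 with loess, 72 and 0 with normexp, 14 and 0 with at least 5 probes, 960 and 19 at 1.5-fold and 31 and 3 matched on GC content. For regions (132 and 4) they were 601 and 20 at 1.5-fold, 21 and 1 with at least 4 bright probes and 25 and 2 matched on GC content. Of 16 list medians 11 lay above 0, 0 centred on bright probes and 2 with loess, and of the named genes 41, and 19 centred on bright probes. The cause of these shifts was not tested, apart from the fewer genes that stricter limits leave. No paired analysis was possible because each group has 1 array. Bright probes, 11.3% of those kept, limit every MeDIP difference.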

Other observations

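Gene families read by name, which were chosen after their values were seen, did not all lie at the median of all genes (-0.01, 48.3% above 0). Of 48 replication-dependent histone genes 2 were counted lower and 0 higher, against 14 (0.0762%) and 84 (0.457%) of all 18381 genes. The 2, Hist1h3d and Hist1h2bh, had no bright probe on either decitabine array. Of the 48 genes 3 lay above 0, the median was -0.44, and they ran from Hist1h3d (-1.39) to Hist1h1b (0.28), a linker histone gene. Their median input difference was 0.46 and their median MeDIP difference 0.01. Matched on GC content their median was -0.25 with 22.9% above 0, against 0.02 and 53.3% for all genes; with loess it was -0.31, with normexp -0.26 and centred on bright probes -0.83, against -0.10, -0.03 and -0.40 for all genes. Without decitabine their median was -0.21.

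Olfactory receptor genes (797) had a median of -0.31 with 90 above 0, an input difference of 0.28 and a MeDIP difference of -0.04. Vomeronasal receptor genes (101) had a median of -0.31 with 12 above 0. Without decitabine the olfactory and vomeronasal medians were -0.30 and -0.33. The probes of both families were poor in GC, with medians of 36.9% and 36.4%, and matched on GC content the family medians were -0.06 and -0.06. Fox genes had a median of 0.17 with 35 of 42 above 0, and Hox genes 0.13 with 30 of 39; with loess these medians were 0.03 and 0.00, and centred on bright probes -0.23 and -0.27. Matched on GC content they were 0.07 and 0.10, and without decitabine 0.13 and 0.15. Zinc finger genes named Zfp had a median of 0.02 with 139 of 263 above 0.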
